A study of Mus musculus with 6 samples.

Results

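Hox genes encode transcription factors that bind DNA through a homeodomain and give cells their position along the body axis. In mouse they lie in 4 clusters, HoxA, HoxB, HoxC and HoxD, and are numbered by paralogue group from 1, expressed toward the head, to 13, expressed toward the tail and the tips of the limbs. Adult skin keeps such a code in its dermal fibroblasts. The members described here are all rows of the count table whose mouse Ensembl ID has a symbol made of Hox, a cluster letter and a number: 39 of 55385 mouse genes. There were 11 in HoxA, 10 in HoxB, 9 in HoxC and 9 in HoxD.

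The 6 RNA-seq libraries came from PDVC57, an established squamous carcinoma line of mouse keratinocyte origin. The labels give the genotype Sox2 KO for 3 libraries and Sox2 overexpression for 3, which differ in the stem cell transcription factor Sox2, and the design text describes cells low or high in Sox2 taken from grafted tumours. The groups share no further allele or agent in the labels. The labels do not say how the cells were purified from the tumour, whether the lines were single clones, or how many animals were used, so p-values measure only the spread between these libraries, which may be technical. Libraries held 31247976 to 38543221 counts over mouse genes. Sox2 had 25 to 49 counts in the knockout libraries and 2566 to 4095 in the overexpression libraries (log2 ratio 6.58, adjusted p = 2.29e-06, quasi-likelihood test of edgeR with Benjamini-Hochberg adjustment), so it separated the groups as labelled.

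The labelled cell type was checked against markers, since cells from a graft can carry stroma. The 24 epithelial markers summed to 7417 to 11500 CPM (the usual depth-scaled count, here with TMM-normalized library sizes) in the knockout libraries and to 18410 to 23560 CPM in the overexpression libraries. The 10 fibroblast markers, among them Col1a1 and Pdgfra, summed to 55990 to 83770 CPM in the knockout libraries and to 255 to 404 CPM in the overexpression libraries, and all 10 kept over 3 counts in every overexpression library. All 10 were lower with overexpression past the threshold. Markers of white blood cells summed to 30.3 to 176 CPM with knockout and 7.21 to 17.4 CPM with overexpression. Endothelial markers summed to 33.4 to 122 CPM with knockout and 13.3 to 20.1 CPM with overexpression. In the knockout libraries the fibroblast sum exceeded the epithelial sum. Col1a1, Col1a2 and Col3a1 made up most of it, at knockout means of 23310, 17500 and 26730 CPM. The highest of the other markers was Postn, at 2708 CPM, so the order of the sums rests on these collagens. As far as they mark fibroblasts, the excess goes against a label of carcinoma cells alone. Bulk RNA does not show which cells carried it. In these bulk samples fewer cells of a type and less RNA per cell cannot be told apart.

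The clusters differed in what they showed. The 6 HoxC genes that passed the filter on low counts had at least 74 counts in every knockout library and at most 29 in any overexpression library, while the 20 tested genes of HoxA, HoxB and HoxD had log2 fold changes between -0.68 and 0.73. Hoxa10 of HoxA missed that filter, with 101 counts over the knockout libraries and 2 over the overexpression libraries. The promoters of the 3 group 4 paralogues that have a window in the RefSeq table (GRCm38.p6) are shown because Hoxc4 is the HoxC gene with a window in that table and its paralogues went differently: Hoxc4 was 6.07 lower on the log2 scale and Hoxb4 and Hoxd4 did not pass the threshold. Each line gives the 250 bases before the annotated start, with CG dinucleotides in capitals. They lie at chr11:96318017-96318266, chr15:103034145-103034394 and chr2:74721728-74721977, all on the plus strand. The Hoxc4 and Hoxd4 windows lie inside the GENCODE M21 spans of those genes, whose first annotated starts are further upstream, and the Hoxb4 window ends at the base before its span.
Hoxb4: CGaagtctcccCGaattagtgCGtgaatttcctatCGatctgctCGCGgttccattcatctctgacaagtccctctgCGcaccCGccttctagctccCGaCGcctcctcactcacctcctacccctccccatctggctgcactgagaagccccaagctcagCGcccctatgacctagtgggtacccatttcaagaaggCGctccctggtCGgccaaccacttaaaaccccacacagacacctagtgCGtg
Hoxc4: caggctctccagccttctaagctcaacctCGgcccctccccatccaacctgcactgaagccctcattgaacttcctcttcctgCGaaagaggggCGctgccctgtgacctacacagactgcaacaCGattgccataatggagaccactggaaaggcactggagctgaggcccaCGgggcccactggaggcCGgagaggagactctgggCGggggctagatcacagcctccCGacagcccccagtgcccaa
Hoxd4: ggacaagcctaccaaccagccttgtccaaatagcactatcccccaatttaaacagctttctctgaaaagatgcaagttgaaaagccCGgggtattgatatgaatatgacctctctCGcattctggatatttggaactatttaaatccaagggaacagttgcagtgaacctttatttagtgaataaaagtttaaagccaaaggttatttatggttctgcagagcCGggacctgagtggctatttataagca
The windows hold 14 CG dinucleotides for Hoxb4, 8 for Hoxc4 and 3 for Hoxd4, where the median over 32851 windows of 250 bases is 6. The table has 24 windows for 22 of the 39 Hox genes, with a median of 12.5. The letters ACAAT, the core bound by SOX factors, were searched on both strands and found in 0 of these 3 windows, in 5 of 24 Hox windows and in 27.7% of all windows. The letters TGATNNAT, bound by HOX and PBX proteins together, were found in 0 of these 3 windows, 4 of 24 Hox windows and 7.68% of all windows. These counts describe the letters in the windows only.

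Of the 39 members, 26 passed the filter on low counts and were tested. Across the 26, 11 had an adjusted p under 0.05, against 31.6% of the 18504 genes tested. There were 7 lower with overexpression, where 18.0% of tested genes were lower, and 4 higher, where 13.6% were higher. The groups did not overlap for 16 of the 26, against 50.9% of all tested genes. The median log2 fold change was -0.15 for the 26 Hox genes and -0.02 for all tested genes. When libraries were scaled to the epithelial markers instead, 20 Hox genes were lower and 0 higher, and the median of all tested genes moved to -1.19, with 97.5% of all called genes lower against 56.9% before.

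**Figure D1:**
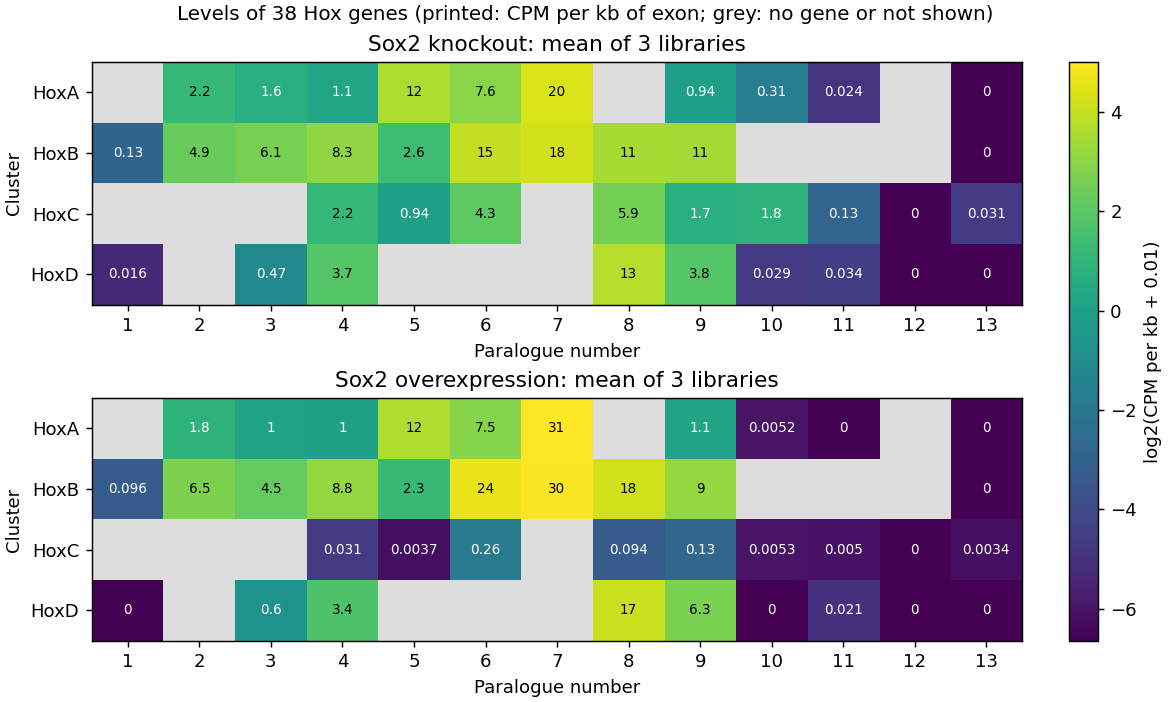
Mean level of 38 of the 39 Hox genes, in CPM per kilobase of exon, with clusters as rows and paralogue numbers as columns, for the 3 knockout libraries (top) and the 3 overexpression libraries (bottom); colour is the log2 of the level plus 0.01, and grey marks positions with no gene or not shown. The HoxC row goes from values such as 5.90 (Hoxc8) with knockout to 0.0938 with overexpression, while Hoxa7 goes from 20.4 to 31.1.

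HoxC lies on chromosome 15 (102921103 to 103036852, plus strand, GRCm38). Of its 9 genes, 6 passed the filter: Hoxc4, Hoxc5, Hoxc6, Hoxc8, Hoxc9 and Hoxc10. Hoxc4, Hoxc5, Hoxc8 and Hoxc10 reached the minimum in all 3 libraries of the knockout group only, and passing in this way favours genes that differ. Hoxc6 and Hoxc9 reached it in all libraries of both groups. All 6 were lower with overexpression, with log2 fold changes from -8.03 to -3.62, and each kept an adjusted p under 0.05 in all 6 fits that left out 1 library. A fall of at least 8-fold past the threshold was seen for 9.04% of tested genes. The 10 fibroblast markers fell with these genes, at the summed levels given above, and their part in the result was not tested.

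Hoxc8, a middle group gene of the thoracic region, had the highest mean level of the cluster per length with knockout, with libraries that overlapped those of Hoxc6. Hoxc8 counts were 353, 732 and 568 in the 3 knockout libraries, in replicate order, against 12, 9 and 5 in the 3 overexpression libraries. On the CPM scale this was 16.7 ± 7.0 CPM (SD, n = 3) in the knockout group and 0.266 ± 0.125 CPM (SD, n = 3) in the other. Knockout replicate 2 was the highest of its group, and the groups did not overlap. Overexpression over knockout was -5.99 in log2 (SE 0.48, edgeR, adjusted p = 3.19e-05).

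Hoxc6, its neighbour toward group 1, had 311, 414 and 312 counts with knockout and 12, 29 and 22 with overexpression. Its mean went from 10.4 ± 2.82 to 0.635 ± 0.315 CPM (SD, n = 3 each), or -4.05 in log2 (SE 0.41, edgeR, adjusted p = 0.000127). Hoxc9, on the other side of Hoxc8, had 132, 157 and 112 counts with knockout and 11, 10 and 12 with overexpression, or -3.62 in log2 (SE 0.36, edgeR, adjusted p = 0.000121). Both genes were well above 3 counts in every overexpression library, the limit that a count of 0 allows, so they were still measured there. Hoxc9 kept 8.06% of its knockout level and Hoxc6 kept 6.07%.

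Hoxc4, at the group 1 side of the cluster, had 180, 167 and 216 counts with knockout and 4, 2 and 2 with overexpression. The fall was -6.07 in log2 (SE 0.41, edgeR, adjusted p = 1.14e-05), and its knockout libraries were the most even of the cluster, at 5.57 ± 0.325 CPM (SD, n = 3). Hoxc10, a gene of the lumbar and hindlimb region, had 148, 80 and 131 counts with knockout and 1, 0 and 0 with overexpression. Over the groups this is 359 counts against 1, a knockout level 363 times that with overexpression (95% exact counting interval 64.7 to 14360). Hoxc5 had 94, 74 and 128 counts with knockout and 0, 1 and 0 with overexpression, a ratio of 299 (95% exact counting interval 53.2 to 11850). These intervals cover counting error only, since PCR reads without molecular identifiers are not independent molecules. Hoxc5 and Hoxc10 share 166 bases of exon on the same strand, so reads there could have gone to either gene.

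The other 3 HoxC genes did not pass the filter. Hoxc11 had 5, 16 and 4 counts with knockout and 1, 0 and 0 with overexpression, a ratio of 25.2 (95% exact counting interval 4.13 to 1037), and without the filter it was lower with an adjusted p of 0.031 (edgeR). Hoxc13, known for its part in hair and nail, had 7 counts in knockout replicate 2, 1 in overexpression replicate 3 and 0 in the other 4 libraries. Hoxc12 had no count in any library, and a count of 0 allows at most 0.0759 to 0.101 CPM in a library. The level of HoxC therefore ended at group 10 in the knockout libraries, with few counts beyond it.

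**Figure D2:**
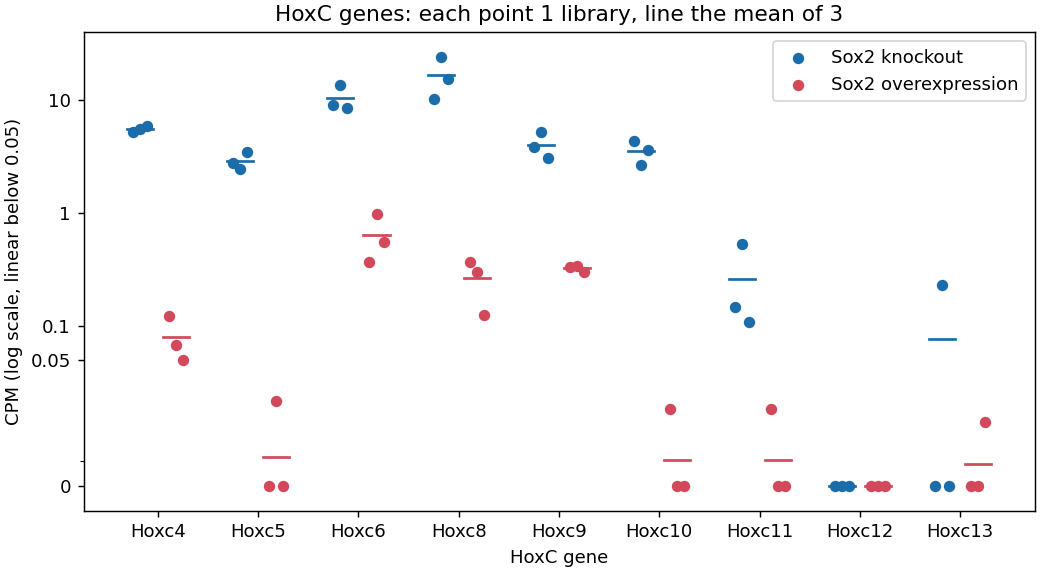
CPM of the 9 HoxC genes in each library (points; log scale, linear below 0.05 CPM), blue for knockout and red for overexpression, with a line at the mean of 3 libraries. For the 6 genes tested, every knockout library lies above every overexpression library, and Hoxc6, Hoxc8 and Hoxc9 keep points between 0.127 and 0.981 CPM with overexpression.

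HoxC was also set beside the fibroblast markers library by library. With overexpression the 6 tested HoxC genes kept 0.289% to 8.06% of their knockout level, with a median of 1.51%. The 10 fibroblast markers kept 0.0967% to 0.822%, with a median of 0.447%. The summed HoxC level was 0.0640%, 0.0650% and 0.0516% of the summed fibroblast marker level in knockout replicates 1, 2 and 3. It was 0.490%, 0.607% and 0.263% of that sum in overexpression replicates 1, 2 and 3, higher in each of them than in any knockout library. These overexpression values rest on 41, 51 and 42 HoxC counts, and the fibroblast sum is mostly Col1a1, Col1a2 and Col3a1 in both groups. The HoxC sum was highest in knockout replicate 2 (54.5 CPM), which also had the highest fibroblast marker sum, and lowest in knockout replicate 1 (35.8 CPM), which had the lowest. Singly, Hoxc6, Hoxc8 and Hoxc9 were highest in knockout replicate 2, Hoxc4 and Hoxc5 in knockout replicate 3 and Hoxc10 in knockout replicate 1. With 3 libraries a group these orders are a description only.

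As a share of all Hox CPM, HoxC made up 8.75% to 13.2% in the knockout libraries and 0.256% to 0.323% in the overexpression libraries. This share does not depend on how libraries are scaled to each other. Per length, Hoxc4 was 13.2% to 14.9% of the summed level of the 4 group 4 genes with knockout and 0.157% to 0.394% with overexpression. Hoxc8 was 12.7% to 26.4% of the 3 group 8 genes with knockout and 0.132% to 0.452% with overexpression. Hoxc6 was 13.1% to 20.8% of group 6 with knockout, Hoxc9 8.61% to 11.3% of group 9 and Hoxc5 5.24% to 7.91% of group 5. None of these 5 shares overlapped between the groups. In these 5 groups HoxC was the smaller part in every library, whereas in group 10 Hoxc10 made up 75.9% to 95.3% with knockout, with 3 counts in all over that group with overexpression.

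**Figure D3:**
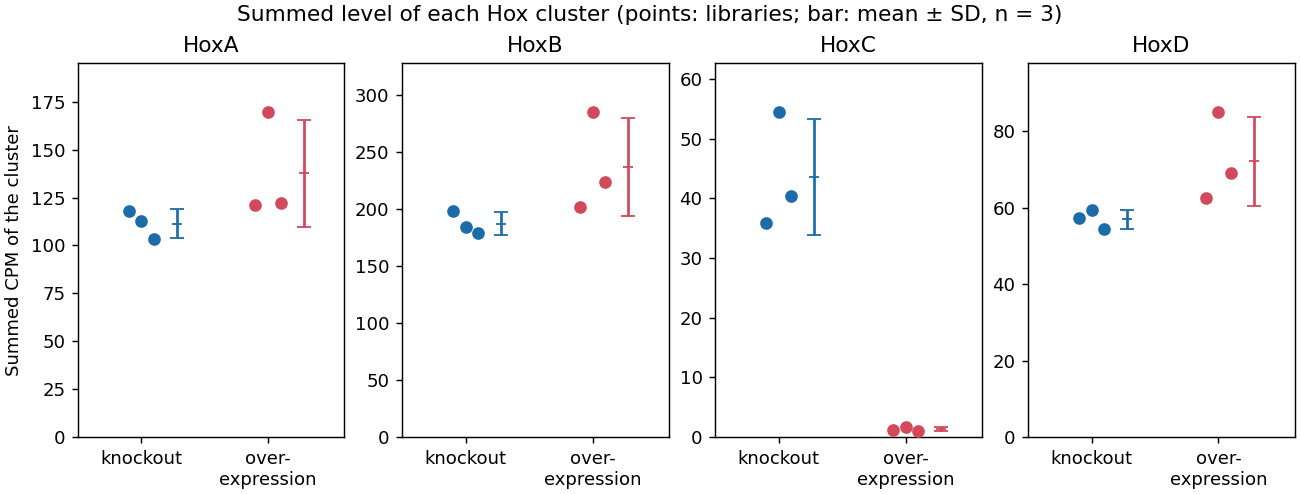
Summed CPM of each Hox cluster in each library (points; axes start at 0 and differ between panels), with the mean ± SD of 3 libraries beside them. HoxC falls from 43.5 ± 9.72 to 1.35 ± 0.342 CPM, and overexpression replicate 2 is the highest library in the other 3 clusters.

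HoxA, HoxB and HoxD summed to 111 ± 7.43, 187 ± 9.92 and 57.03 ± 2.49 CPM (SD, n = 3 each) with knockout. With overexpression they summed to 138 ± 27.8, 237 ± 43.3 and 72.1 ± 11.6 CPM (SD, n = 3 each). Overexpression replicate 2 was the highest in each, at 170, 285 and 85.0 CPM. On the log2 scale the sums were higher by 0.31, 0.34 and 0.34 with overexpression, and they were -0.86, -0.84 and -0.84 when libraries were scaled to the epithelial markers. Of the 30 members in these clusters 20 were tested. Their median log2 fold change was 0.07 against -0.02 for all tested genes, a difference of 0.090, and it was 0.089 above the median of all genes under the epithelial scaling. That difference was 0.021 without overexpression replicate 2, 0.042 without knockout replicate 2 and 0.172 without the filter on low counts. It was 0.177 without knockout replicate 1, 0.182 without overexpression replicate 3 and 0.192 without overexpression replicate 1.

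The level per length placed the same genes at the top in both groups. Hoxa7, Hoxb7 and Hoxb6 led, at 20.4, 18.2 and 15.4 CPM per kilobase with knockout and 31.1, 30.2 and 24.4 with overexpression. In the knockout libraries Hoxa7 and Hoxb7 overlapped, as did Hoxb7 and Hoxb6, while every Hoxb6 value lay above every value of the next gene, Hoxd8 (13.1 CPM per kilobase). In the overexpression libraries neighbours overlapped down to Hoxd8 (16.8), which lay above Hoxa5 (12.3) in all libraries. Hoxa5, Hoxb8, Hoxb9, Hoxb4 and Hoxa6 followed with knockout, from 11.8 to 7.62 CPM per kilobase. Hoxc8 was 11th with knockout (5.90) and 24th with overexpression.

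The 4 genes that were higher with overexpression came from groups 6 to 8, and all 4 were below 0 under the epithelial scaling. Hoxb6, Hoxb7 and Hoxb8 are neighbours on chromosome 11 (96281905 to 96301569, plus strand) that mark the trunk. Hoxb8 had 30.9, 28.7 and 29.3 CPM in knockout replicates 1, 2 and 3 and 37.7, 60.2 and 45.9 CPM in overexpression replicates 1, 2 and 3. The difference was 0.69 in log2 (SE 0.19, edgeR, adjusted p = 0.0228). Hoxb7 had 29.5, 29.6 and 25.4 CPM with knockout and 41.4, 59.7 and 38.9 CPM with overexpression (log2 fold change 0.73, edgeR, adjusted p = 0.0211). The groups did not overlap for either gene, and overexpression replicate 2 was the highest library in both.

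Hoxb6 had 33.1, 28.7 and 29.1 CPM with knockout and 42.1, 56.6 and 44.7 CPM with overexpression (log2 fold change 0.66, edgeR, adjusted p = 0.0157). Hoxa7, the paralogue of Hoxb7 on chromosome 6, had 63.3, 59.9 and 52.4 CPM with knockout and 76.8, 116 and 75.2 CPM with overexpression (log2 fold change 0.61, edgeR, adjusted p = 0.0444). Of these 4 genes, 0 passed without knockout replicate 2 or 3, with adjusted p-values of up to 0.11 and 0.136. Calls over all tested genes also fell there, from 5848 to 4230 and 4527. The 4 log2 fold changes were 0.625 to 0.771 without knockout replicate 2. Without overexpression replicate 2 they were 0.396 to 0.538, and all 4 passed. Of the Hoxa7 exons 20.4% overlap Hoxaas3 on the other strand. Without knockout replicate 1, Hoxb6 and Hoxb7 passed and Hoxb8 (adjusted p = 0.0538) and Hoxa7 (0.074) did not. Under the epithelial scaling the log2 fold changes of these 4 genes were -0.55 to -0.44, with adjusted p-values from 0.0651 to 0.149. Over all alternatives the adjusted p ranged from 0.0031 to 0.085 for Hoxb6, 0.00413 to 0.149 for Hoxb7, 0.00569 to 0.109 for Hoxb8 and 0.0147 to 0.136 for Hoxa7.

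Hoxa3, a gene of the throat and neck region, was the tested member outside HoxC that was lower past the threshold. It had 9.14, 11.2 and 9.26 CPM with knockout and 5.43, 7.0 and 6.02 CPM with overexpression, so the groups did not overlap. The difference was -0.68 in log2 (SE 0.21, edgeR, adjusted p = 0.0407). It passed in 1 of 6 fits that left out a library, that without overexpression replicate 2, and the adjusted p ranged from 0.000335 to 0.156 over the alternatives. Of the Hoxa3 exons 8.0% overlap Gm28308 on the same strand, and the adjusted p was 0.0585 when such counts were added to the gene.

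**Figure D4:**
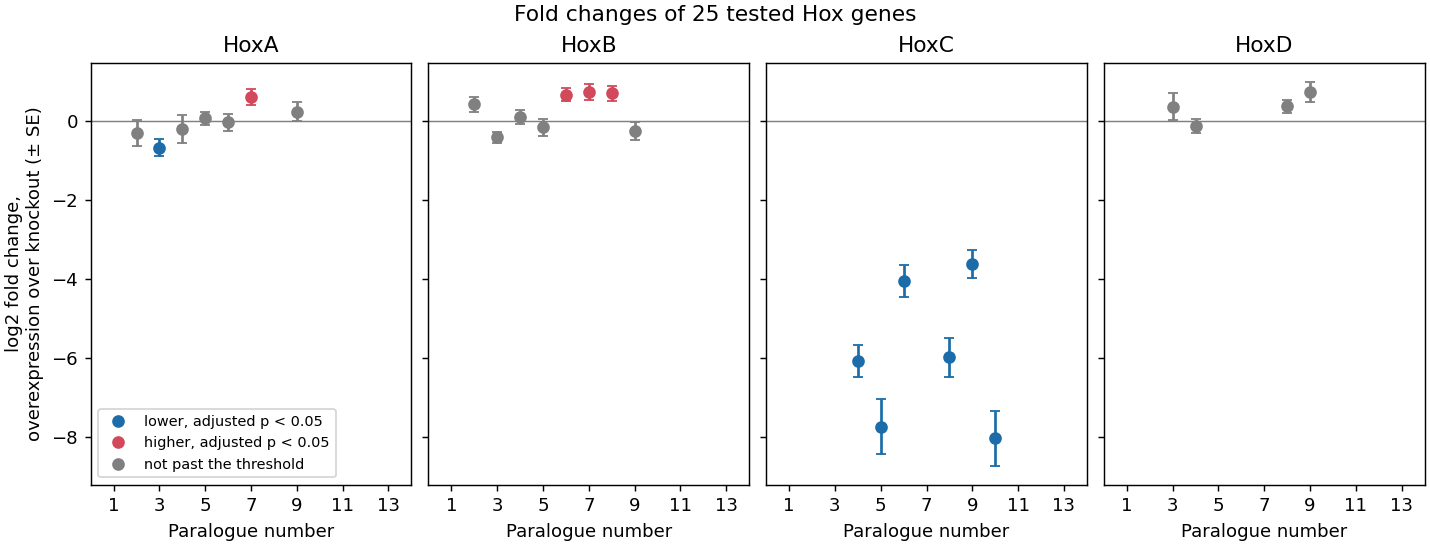
Log2 fold change of 25 of the 26 tested Hox genes (overexpression over knockout, bars ± standard error) against paralogue number, 1 panel per cluster; blue is lower, red higher (all 4 below 0 under epithelial scaling) and grey not past the threshold. HoxC genes lie from -8.03 to -3.62, and the other genes plotted from -0.68 to 0.73. Hoxa10, which had fewer counts with overexpression but missed the filter, is not drawn.

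The other 15 tested members of HoxA, HoxB and HoxD did not pass the threshold. Hoxd9 came nearest, with 8.12, 9.62 and 6.55 CPM with knockout and 10.4, 17.4 and 12.3 CPM with overexpression (log2 fold change 0.72, or -0.43 under the epithelial scaling, edgeR, adjusted p = 0.0586). Its groups did not overlap, and it passed without overexpression replicate 1 (adjusted p = 0.0371; 0.0288 to 0.244 over the alternatives). Hoxb3 was 25.7, 25.1 and 26.7 CPM with knockout and 17.6, 19.8 and 20.5 CPM with overexpression (log2 fold change -0.42, edgeR, adjusted p = 0.0626), and it passed without overexpression replicate 2 (0.047; 0.000211 to 0.202 over the alternatives). Of the exons of Hoxb3, 52.9% overlap Hoxb3os on the other strand, so without a stated strand setting their reads cannot be told apart. The 4 tested HoxD genes gave 0 calls in the edgeR test, where 1 had an unadjusted p under 0.05 and 1, Hoxd9, passed in DESeq2.

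Members of groups 2, 4 and 5 outside HoxC did not pass the threshold. Hoxa5, which marks the neck and forelimb level, had 25.5, 21.6 and 19.5 CPM with knockout and 22.5, 25.1 and 21.9 CPM with overexpression (0.06 in log2, SE 0.17). Hoxb4 had 22.7, 18.3 and 22.6 CPM with knockout and 20.6, 26.4 and 20.6 CPM with overexpression, and Hoxd4 10.9 ± 0.887 and 9.99 ± 0.309 CPM (SD, n = 3 each). Their log2 fold changes were 0.09 and -0.13. Hoxa2, Hoxa4, Hoxb2 and Hoxb5 had log2 fold changes from -0.30 to 0.42, with adjusted p-values from 0.12 to 0.686. The groups of Hoxb2 did not overlap, and it passed without overexpression replicate 1 (adjusted p = 0.0486; 0.0265 to 0.282 over the alternatives). Within groups 6 to 9, Hoxa6, Hoxa9, Hoxb9 and Hoxd8 did not pass either, at log2 fold changes of -0.03, 0.23, -0.26 and 0.37. Hoxd3, at 0.36 and at -0.74 under the epithelial scaling, shares 53.1% of its exons with Gm28230 on the same strand, and its counts could have been split.

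Groups 11 to 13 were low in every cluster. In group 10, Hoxc10 had 1.85 CPM per kilobase with knockout, overlapping Hoxc9 at 1.66. Of the 12 members of groups 10 to 13, 1 (Hoxc10) was tested. Hoxa10 had 9, 38 and 54 counts with knockout and 0, 0 and 2 with overexpression, a ratio of 51.0 over the group totals (95% exact counting interval 13.8 to 427). It missed the filter through knockout replicate 1. Without that library, its lowest with knockout, it was lower with an adjusted p of 0.0011 (edgeR). Without overexpression replicate 1, 2 or 3 the adjusted p was 0.016, 0.0285 and 0.0126 (edgeR). In these fits it passed the filter through the knockout libraries only, which favours genes that differ. Its neighbour Hoxa9 had 174, 161 and 193 counts with knockout and 173, 216 and 233 with overexpression. Hoxa13, Hoxb13, Hoxc12, Hoxd12 and Hoxd13 had no count in any library. Hoxa11 had 5 counts in knockout replicate 2 and 0 elsewhere, and Hoxd10, Hoxd11 and the anterior Hoxd1 had at most 6 in any library. Hoxb1 had 6, 7 and 17 counts with knockout and 3, 11 and 8 with overexpression.

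The clusters also hold 46 annotated genes that are not members, mostly antisense and other non-coding RNAs, of which 14 were tested. The edgeR test called 0 of the 14, against 31.6% of all tested genes. At an unadjusted p under 0.05 in edgeR there were 3, all lower, and DESeq2 called 1. Hotairm1, a non-coding RNA, had a log2 fold change of 0.41, Hoxd3os1 one of 0.66, Hoxb5os -0.73, Hoxb3os -0.14 and Hoxaas3 -0.06. Hoxaas2 had -1.10 (edgeR, adjusted p = 0.0506). Haglr and the overlapping protein-coding models Gm28230 and Gm28308 had -0.31, 0.25 and 0.36. The remaining 5 were Gm27477 (1.04), Gm15050 (-0.14), 5730596B20Rik (-0.95), Gm53 (-0.93) and Gm11536 (-0.12). None of the 7 non-member genes inside HoxC passed the filter, and Hotair had 1 count in knockout replicate 2 and 1 in overexpression replicate 2. Genes that flank the clusters were counted next, beside 18.0% lower and 13.6% higher over all tested genes. Of 16 tested flanking genes, 1 was lower (Snx10, log2 fold change -0.57, adjusted p = 0.0459) and 1 higher (Smug1, beside HoxC, 0.63, adjusted p = 0.0472, edgeR). Each of these passed in 1 of the 6 fits that left out a library, and 0 passed without knockout replicate 2 or 3 or overexpression replicate 2.

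HOX proteins bind DNA with PBX, MEIS and PKNOX homeodomain cofactors. All 9 cofactor genes listed were tested, and 3 were lower, where 18.0% of all tested genes were, and 0 higher with overexpression in edgeR (2 higher at an unadjusted p under 0.05 and 2 in DESeq2). Meis3 had 11.5, 12.8 and 11.6 CPM with knockout and 0.275, 0.372 and 0.152 CPM with overexpression, or -5.50 in log2 (SE 0.35, edgeR, adjusted p = 8.58e-06). Pknox2 had 89, 182 and 260 counts with knockout and 9, 3 and 3 with overexpression (log2 fold change -5.11, adjusted p = 0.000309, edgeR). Meis1 fell less, from 27.7 ± 7.12 to 14.4 ± 1.58 CPM (SD, n = 3 each, log2 fold change -0.94, adjusted p = 0.00965, edgeR). The groups did not overlap for any of these 3 genes. The fibroblast markers fell in the same libraries, at a list median of -7.81, and their part in the fall of Meis3, Pknox2 and Meis1 was not tested. Pbx2, Pbx3, Pbx4, Meis2 and Pknox1 did not pass, at 0.43, 0.48, -1.39, 0.36 and 0.16. The count of called cofactors was 9 under the epithelial scaling and 5 without overexpression replicate 2.

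Polycomb proteins keep Hox clusters silent and trithorax or MLL proteins keep them active. Of 26 Polycomb genes, all tested, 5 were higher, where 13.6% of all tested genes were, and 0 lower in edgeR (0 lower at an unadjusted p under 0.05 and 0 in DESeq2), at a list median of 0.23, and all 5 were below 0 under the epithelial scaling, from -0.61 to -0.09. Cbx7, which binds the methylated histone tail, had the smallest p-value, with 31.5 ± 0.441 CPM with knockout and 66.7 ± 7.69 CPM with overexpression (SD, n = 3 each), or 1.08 in log2 (edgeR, adjusted p = 0.000582). Cbx6, Rbbp4 and Ezh1 were higher by 0.76, 0.75 and 0.56. The count was 3 without knockout replicate 2 or 3. Of 16 trithorax and MLL genes, 4 were higher, beside the same 13.6% of all tested genes, and 0 lower in edgeR. At an unadjusted p under 0.05 in edgeR 2 were lower, and 1 in DESeq2. The list median was 0.15, and 3 of the 4 higher genes were below 0 under the epithelial scaling. Mllt3, a partner of the histone methyltransferase Dot1l, went from 23.1 ± 3.23 to 77.6 ± 6.71 CPM (SD, n = 3 each, log2 fold change 1.75, adjusted p = 7.23e-05, edgeR), and was also higher under the epithelial scaling (0.60). Kdm6a, Dpy30 and Mllt1 had 0.94, 0.71 and 0.63, and -0.23, -0.47 and -0.56 under that scaling. The count was 1 without knockout replicate 2, and 2 without knockout replicate 1 or 3.

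Retinoic acid induces Hox genes in the embryo. Of 15 tested genes of its synthesis, breakdown, transport and receptors, 5 were lower and 4 higher, at a list median of 0.02. Over all tested genes 18.0% were lower and 13.6% higher. The synthesis enzymes moved apart: Aldh1a3 went from 27.4 ± 14.1 to 1.16 ± 0.0597 CPM (log2 fold change -4.56, adjusted p = 7.06e-05) and Aldh1a1 from 10.2 ± 4.16 to 56.98 ± 15.8 CPM (2.49, adjusted p = 0.00082; SD, n = 3 each, edgeR). The binding protein Crabp1 had -5.28, the receptor for retinol uptake Stra6 -2.77, and Cyp26b1, which breaks retinoic acid down, -2.98. Rdh10, which makes retinal, and the receptors Rarg and Rxra had 0.95, 0.61 and 0.48, and -0.21, -0.56 and -0.69 under the epithelial scaling. The count of higher genes was 2 without knockout replicate 2 or 3, 6 without overexpression replicate 1 and 1 under the epithelial scaling. None of the 6 Cdx and ParaHox genes passed the filter.

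Other transcription factors with a regional pattern in limb and skin were read as a further list. Of 20 tested, 13 were lower and 3 higher, at a list median of -1.79. Over all tested genes 18.0% were lower and 13.6% higher. En1, a gene of dermal fibroblasts of the back, had 294, 463 and 553 counts with knockout and 1, 1 and 4 with overexpression (log2 fold change -7.72, adjusted p = 7.64e-06, edgeR). Prrx1 of limb and dermal mesenchyme went from 145 ± 26.8 to 3.41 ± 0.194 CPM (SD, n = 3 each, log2 fold change -5.41, adjusted p = 1.44e-06, edgeR). Tbx3, Tbx18 and Tbx15 had -5.92, -5.28 and -1.96. Tbx15, a gene of the dermis along the flank, kept 15.1 ± 0.899 CPM (SD, n = 3) with overexpression. Pitx1, Prrx2 and Foxc1 were higher by 0.82, 1.00 and 0.94, and were at -0.34, -0.16 and -0.19 under the epithelial scaling. The lower genes were measured in the knockout libraries that held the fibroblast markers, whose part in these results was not tested.

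**Figure D5:**
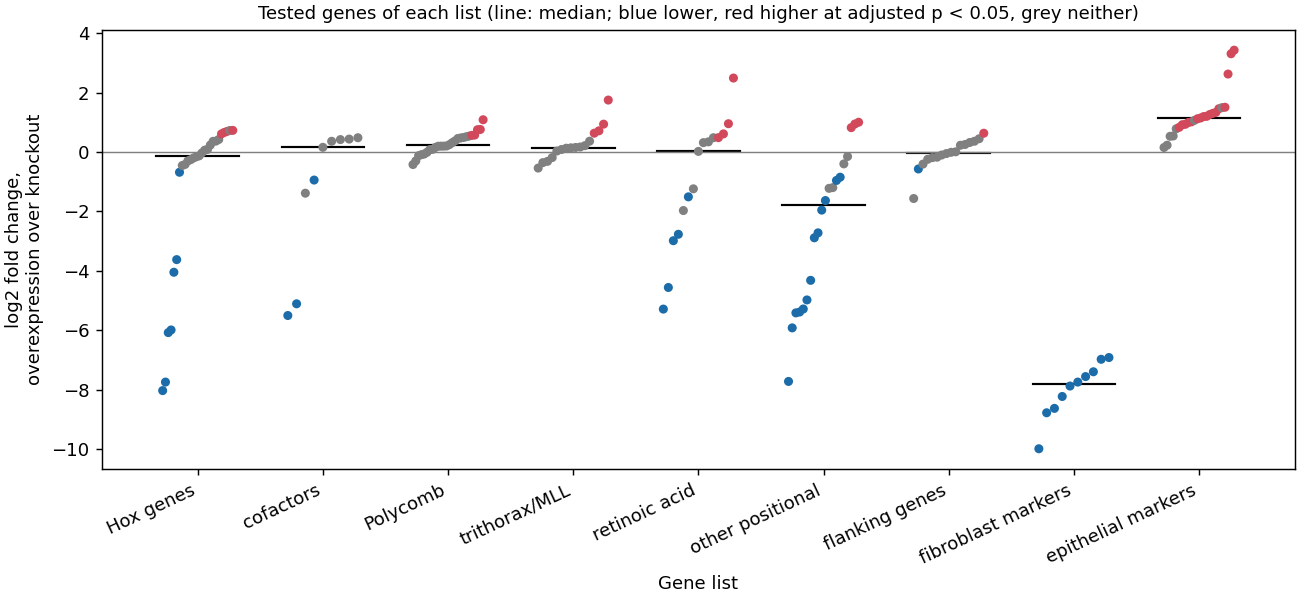
Log2 fold changes (overexpression over knockout) of the tested genes of each list, ordered within a list, with a line at the median; blue is lower, red higher and grey not past the threshold. The fibroblast markers have a median of -7.81 and the epithelial markers one of 1.13, and the 6 HoxC genes form the low tail of the Hox column.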

How the data were processed

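The authors deposited a table of unnormalized gene counts with a column for each library, matched to samples by the labels' descriptions. Per the submitters' processing notes, kallisto 0.44.0 and mm10 were used. Their role for this table, the annotation, the strand setting and the counting rule are not given in the sources used here. The table has 55481 rows. The 96 rows that name no mouse gene (spike-ins and constructs, at most 2.23e-05% of a library) were left out. Symbols came from GENCODE M21 for 55144 of 55385 gene IDs, and coordinates and merged exon lengths from GENCODE M21 on GRCm38. Promoter letters are from RefSeq (GRCm38.p6).

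Low genes were removed by filterByExpr (count 10, total 15), libraries were normalized by TMM, and edgeR 4.0.16 in R 4.3.3 ran its quasi-likelihood test with group as the sole term. P-values were adjusted by Benjamini-Hochberg over all 18504 genes, with a threshold of 0.05. Standard errors are the size of the log2 fold change divided by the square root of F. The fit was tested on simulated data with 200 changed genes. It recovered 64 of 86 changes of 4-fold and 38 of 114 changes of 2-fold. Of its 116 calls 14 were false, a larger share than the threshold of 0.05 aims for. The simulation changed 200 of 18504 genes, where the data had 31.6% called, so these rates may not hold for the data. The members, lists and alternatives were chosen with earlier results of these data known. Members were named without selection by value, and genes of other lists by smallest p-value, up to 5 in each direction. A few genes are counted in totals and are not reported here singly. Alternatives were RLE, upper-quartile and epithelial scaling, no filter, robust dispersion, a replicate block, DESeq2 1.42.0, counts of overlapping same-strand genes added, and each library left out. A count of 0 allows up to 3 counts. Medians and counts of lists carry no test. No batch is named in the labels.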

Additional observations from a re-analysis of the deposited data

Results flagged for a closer look

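The row for the fluorescent protein mCherry, a construct sequence outside the gene comparison, had 8 counts in knockout replicate 3, 1 count in knockout replicate 2 and 0 in the other 4 libraries, where a count of 0 allows up to 3.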

How the results depend on the processing

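The count of 6 lower HoxC genes held under every alternative run except that without a filter on low counts, where 7 passed. Hoxc4, Hoxc5, Hoxc8 and Hoxc10 passed the filter through the knockout libraries only, which favours genes that differ. Without the filter these genes were also lower past the threshold, at log2 fold changes from -8.00 to -5.96 (edgeR). Hoxc6 and Hoxc9 reached the minimum in all libraries of both groups. The number of Hox genes past the threshold was 6 to 13 with any library removed (11 with all): 0 to 6 higher, 6 to 9 lower, and Sox2 kept 6.33 to 6.86 in log2. Without knockout replicate 2 or 3 it was 6, all of HoxC, and 0 were higher. Scaled to the epithelial markers, 20 were past the threshold, 20 lower and 0 higher, 92 genes of the other lists passed (39 in the main setting, 28 to 41 with a library left out), and the cluster sums changed by -0.86 (HoxA), -0.84 (HoxB), -6.19 (HoxC) and -0.84 (HoxD) on the log2 scale. The last were -5.21 to -4.82 for HoxC and 0.15 to 0.46 for the others with a library left out. The log2 fold change of these genes also went below 0 under that scaling: Hoxd3 (-0.74), Hoxd9 (-0.43), Hoxa5 (-1.09), Hoxa7 (-0.55), Hoxa9 (-0.95), Hoxb2 (-0.75), Hoxb4 (-1.10), Hoxb6 (-0.52), Hoxb7 (-0.44), Hoxb8 (-0.49), Hoxd8 (-0.82), Ezh1 (-0.61), Rbbp4 (-0.43), Cbx6 (-0.42), Cbx7 (-0.093), Dpy30 (-0.47), Mllt1 (-0.56), Kdm6a (-0.23), Rdh10 (-0.21), Rarg (-0.56), Rxra (-0.69), Pitx1 (-0.34), Prrx2 (-0.16), Foxc1 (-0.19) and Smug1 (-0.57). By construction it shifted the median of all genes to -1.19. Same-numbered libraries had correlations of deviations of 0.0508, 0.0223 and -0.0399, and differently numbered ones had -0.0672 to 0.0503. These values show no clear pairing by number, and they cannot exclude one that touches few genes. With a replicate block 11 Hox genes passed, 5 higher and 6 lower. Of 364 refitted member fold changes, 321 stayed on their side of the threshold. HoxC counts with overexpression were too few to size the fall of Hoxc5, Hoxc10 and Hoxc11 beyond their intervals.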
